A study of Mus musculus with 2 samples.

Results

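The glycolysis and hypoxia-response module measured here holds 37 mouse genes: 17 glycolytic and closely linked enzymes, 5 transporters of glucose or lactate, 5 genes of the hypoxia-inducible factor (HIF) alpha subunits and their prolyl hydroxylases, and 10 further genes known as HIF targets. A gene was taken as a member where a non-control spot carried its exact name, which found all 37 among the 37074 gene names on the array. Every member was also among the 22301 genes called well above background on both arrays. Splenic monocytes were profiled at 8 weeks after 5/6 nephrectomy (5/6Nx), an operation that removes most of the kidney tissue and models chronic kidney disease, or after a sham operation. Both groups were ICR mice, an outbred stock, and cells of both were stained for CD11b and Ly6C and sorted by flow cytometry. Each group was 1 array of 1 total RNA sample, and the sources used here do not give the number of mice per RNA. According to the file headers, slide and scan were the same for both arrays. With 1 array per group no difference below has a replicate check, and no p-value was computed.

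Glycolysis splits glucose into pyruvate in the cytosol, and lactate dehydrogenase and the lactate carriers dispose of pyruvate when it is not oxidised in mitochondria. Cells make HIF alpha subunits continuously. While oxygen is plentiful, prolyl hydroxylases of the Egln family mark them for destruction, and when oxygen is short the subunits pair with Arnt and bind a short DNA motif near genes for glucose uptake, glycolysis, mitophagy and blood vessel growth. Monocytes and macrophages rely on glycolysis during inflammatory activation, and HIF is one of its regulators in these cells.

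The arrays had 39735 of 59305 non-control spots well above background for 5/6Nx (67.0%) and 37333 for sham (63.0%). Spot intensities were divided by the array's 75th percentile, an intensity of 547.5 on the 5/6Nx array and 442.1 on the sham array, and put on a log2 scale. Differences are 5/6Nx minus sham in these log2 units, so a negative value means a lower relative signal on the 5/6Nx array even where the raw intensities are alike. Over the 283 probes printed with at least 8 usable spots, the SD of a difference between spots of a probe had a median of 0.04, which covers spot noise on bright probes and neither labelling, sorting nor animals. Intensities of different probes are not compared with each other, since probes differ in how well they bind.

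Glycolytic enzymes and HIF targets were mostly lower on the 5/6Nx array, with medians below 0 under every setting compared, whereas 2 glucose transporters and 1 hexokinase were higher. Of the 37 members, 3 were higher on the 5/6Nx array by 2-fold or more (8.11%), against 11.8% of all measured genes, and 9 were lower by as much (24.3%), against 9.69% of all measured genes. The 3 higher members were Slc2a6, Slc2a3 and Hk3. The 9 lower members were Egln3, Vegfa, P4ha2, Ankrd37, Bnip3, Pfkm, Pkm, Eno1 and Pgam1. The other 25 members differed by less than 2-fold, 7 with a value above 0 and 18 below 0. The median difference was -0.54 over the members and -0.10 over all measured genes, so the members' median stood at -0.44 relative to that of all genes. That relative value holds for any scaling by a constant, whereas scaling on the spike-in probes moved every difference by 0.38 upward. Spike-in scaling left 3 members lower and put 5 higher by 2-fold or more, against 4.97% and 20.3% of all measured genes.

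**Figure D1:**
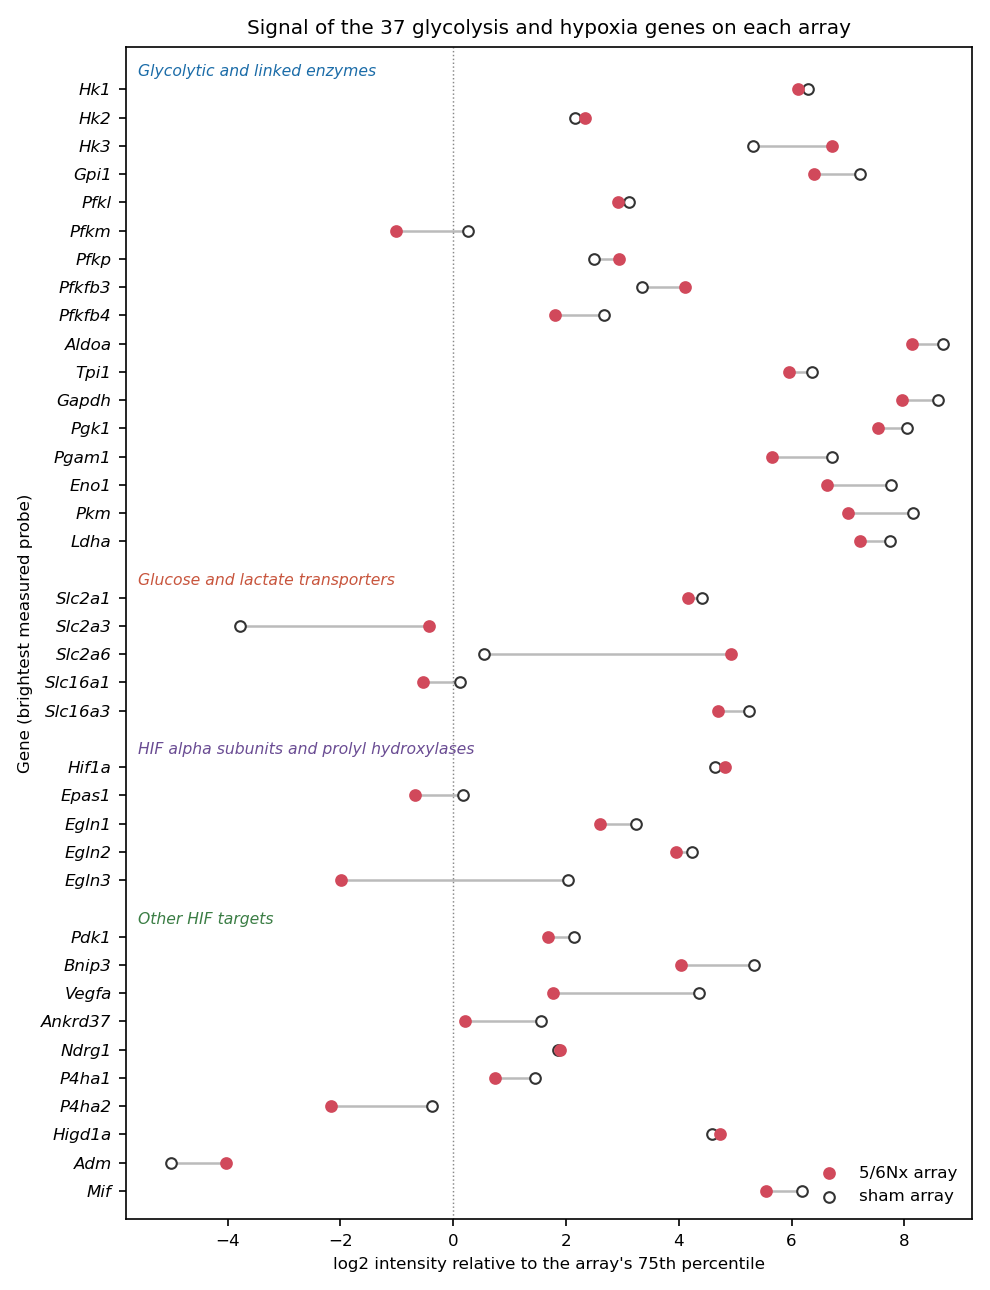
Log2 intensity of each member relative to its array's 75th percentile (x axis) on the 5/6Nx array (filled red points) and on the sham array (open points), at the gene's brightest measured probe, with members grouped by role down the page. The widest gaps are those of Slc2a6 and Slc2a3, with the 5/6Nx point to the right, and of Egln3 and Vegfa, with the 5/6Nx point to the left.

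The alpha subunits of HIF stood apart by less than 2-fold between the arrays, while 1 of the 3 prolyl hydroxylases was far lower on the 5/6Nx array. Hif1a, the alpha subunit present in most cells, read an intensity of 15545 on the 5/6Nx array and 10985 on the sham array, a difference of 0.19. Its 3 probes gave differences of 0.18 to 1.04, all above 0, and the widest of these came from its dimmest probe. Epas1, which encodes the HIF-2 alpha subunit, read 343.7 on the 5/6Nx array and 498.6 on the sham array, a difference of -0.85.

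Egln3, the prolyl hydroxylase that HIF itself induces, read an intensity of 137.0 on the 5/6Nx array and 1808 on the sham array. Its difference was -4.03, which is 16.3-fold lower on the 5/6Nx array and the most negative value of any member. Its single probe lies on chromosome 12, 55280953 to 55281012 of the mouse build mm9, as do all probe positions given here, and no exon or UTR annotation of mm9 was used. Egln1, the main hydroxylase of the HIF alpha subunits when oxygen is plentiful, read 3316 on the 5/6Nx array and 4156 on the sham array, a difference of -0.63. Egln2 read 8429 on the 5/6Nx array and 8323 on the sham array, a difference of -0.29 that became 0.09 with spike-in scaling. The difference of Egln3 thus lay 3.74 log2 units below the difference of Egln2, or 13.4-fold, and scaling by a constant leaves that gap as it is.

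Among the 10 further HIF targets, 4 were lower on the 5/6Nx array by 2-fold or more, against 9.69% of all measured genes, none was higher by that much, against 11.8%, and the median difference was -0.67. Vegfa, the growth factor of blood vessels, read an intensity of 1863 on the 5/6Nx array and 9114 on the sham array at its brightest probe (chromosome 17, 46154387 to 46154446). That is a difference of -2.60, or 6.06-fold lower. Of its 4 probes, 3 lay between -3.23 and -2.45 and the dimmest read 249.0 on the 5/6Nx array and 242.1 on the sham array, a difference of -0.27. The probes of Vegfa therefore share a sign with this scaling and differ in size. The sign of the dimmest depends on the scaling, since spike-in scaling moves every difference by 0.38 upward.

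P4ha2 and P4ha1 encode catalytic subunits of the prolyl hydroxylase that matures collagen. P4ha2 (chromosome 11, 53945032 to 53945091) read 121.1 on the 5/6Nx array and 341.2 on the sham array, a difference of -1.80 or 3.49-fold. P4ha1 read 915.2 on the 5/6Nx array and 1211 on the sham array, a difference of -0.71, with -1.31 at its other probe. Both members of the pair were lower on the 5/6Nx array.

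Ankrd37, an ankyrin repeat protein, read 635.9 on the 5/6Nx array and 1298 on the sham array (chromosome 8, 47082404 to 47082463), a difference of -1.34 or 2.53-fold. Bnip3, a receptor for the removal of mitochondria, read 9055 on the 5/6Nx array and 17751 on the sham array (chromosome 7, 146082760 to 146082819), a difference of -1.28 or 2.43-fold. With spike-in scaling both fell short of 2-fold, at -0.96 for Ankrd37 and -0.90 for Bnip3. The remaining 6 HIF targets lay between -0.71 and 0.97. Pdk1, the kinase that switches off pyruvate dehydrogenase, differed by -0.46, and its 5 probes all lay below 0. Mif, a cytokine, differed by -0.64 with a spread of 0.05 (SD of the difference over 10 spots). The values of Ndrg1, a stress-response gene, and Higd1a, a mitochondrial protein, were 0.03 and 0.14, and with median scaling both were below 0, at -0.12 and -0.01.

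Adm, the vasodilator peptide adrenomedullin, was the member closest to the 2-fold limit from within. It read an intensity of 33.6 on the 5/6Nx array and 13.8 on the sham array, near the dimmest signal called well above background, which was 13.7 on the 5/6Nx array and 13.0 on the sham array. Its difference of 0.97 was 0.14 with the normexp background correction, a model-based correction that compresses dim signals, so its size depends on how background is removed.

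**Figure D2:**
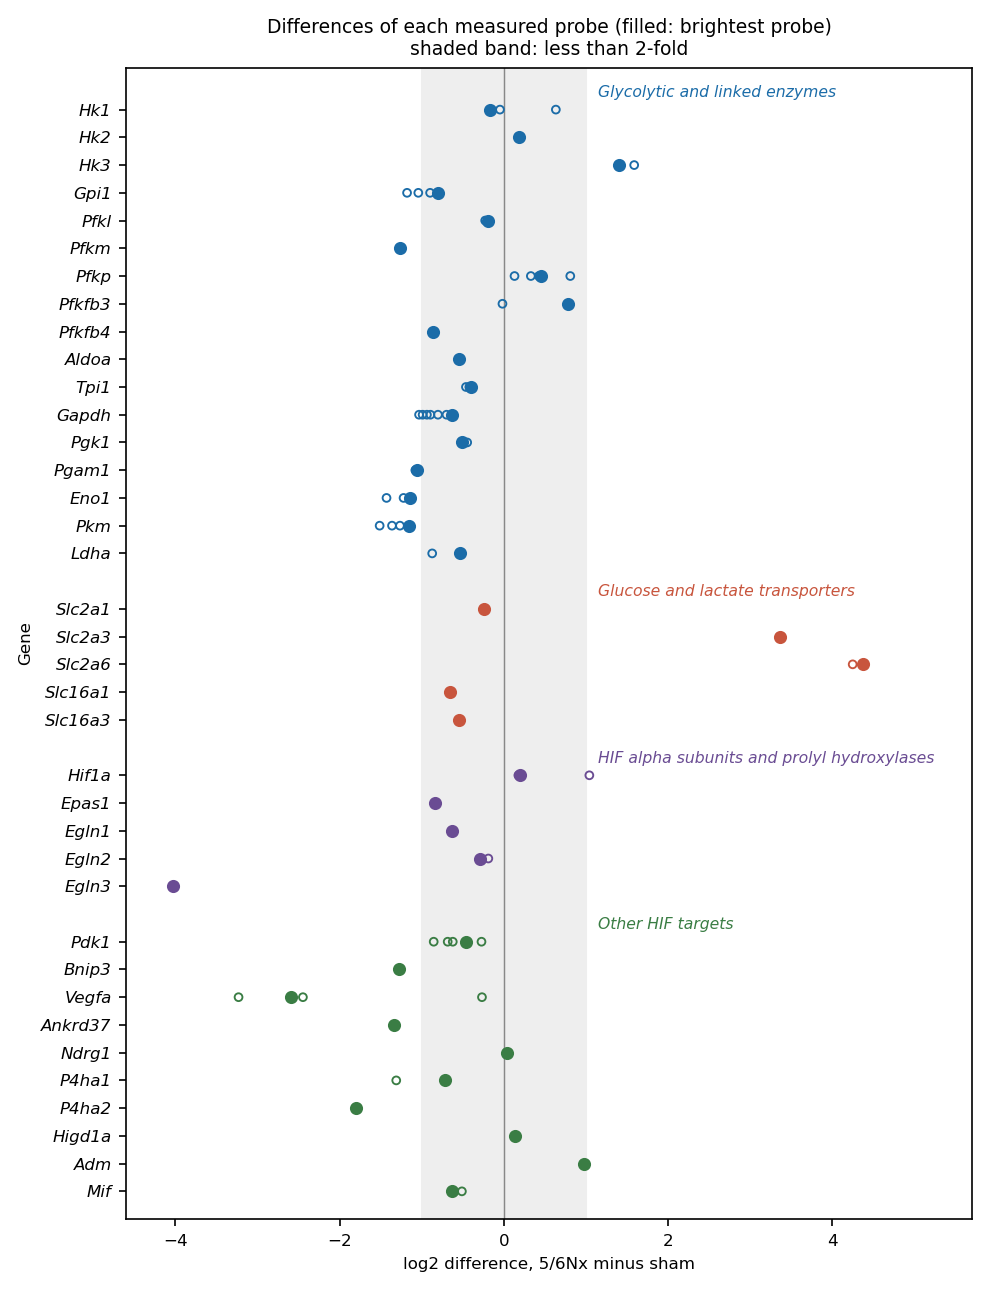
Log2 difference, 5/6Nx minus sham (x axis), of each measured probe of each member, with the brightest probe filled, the others open and colours for the role of the gene. The shaded band spans less than 2-fold, and Egln3 at -4.03 and Slc2a6 at 4.37 lie farthest outside it.

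Since several HIF targets were lower together, the DNA upstream of their start sites was read for the core of the HIF binding motif, ACGTG or GCGTG, on both strands. The windows are the 250 bases before each annotated start in RefSeq's table for the build GRCm38.p6, with coordinates on that build, and 34 of the 37 members had at least 1 window. The windows below belong to the 4 HIF-pathway genes that were lower on the 5/6Nx array by 2-fold or more and have a single annotated start, and to Slc2a6, the member with the largest difference in the other direction. Each is written 5′ to 3′ along the gene's strand, and capitals mark every match of the motif on either strand, which reads CACGT or CACGC where the motif lies on the opposite strand.
Egln3: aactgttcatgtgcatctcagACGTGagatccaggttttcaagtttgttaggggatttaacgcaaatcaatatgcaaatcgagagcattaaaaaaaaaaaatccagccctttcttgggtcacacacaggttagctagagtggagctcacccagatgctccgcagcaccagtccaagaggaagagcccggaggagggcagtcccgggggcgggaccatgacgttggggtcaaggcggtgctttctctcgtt
Bnip3: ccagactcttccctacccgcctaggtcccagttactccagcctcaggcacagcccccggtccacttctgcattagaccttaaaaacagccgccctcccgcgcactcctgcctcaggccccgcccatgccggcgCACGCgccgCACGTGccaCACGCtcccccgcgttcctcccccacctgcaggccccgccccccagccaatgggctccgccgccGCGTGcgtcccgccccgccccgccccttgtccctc
Ankrd37: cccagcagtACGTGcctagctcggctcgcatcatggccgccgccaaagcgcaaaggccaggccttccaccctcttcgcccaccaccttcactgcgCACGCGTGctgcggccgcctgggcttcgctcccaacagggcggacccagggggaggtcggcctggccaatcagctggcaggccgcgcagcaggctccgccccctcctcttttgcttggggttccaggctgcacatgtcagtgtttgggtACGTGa
P4ha2: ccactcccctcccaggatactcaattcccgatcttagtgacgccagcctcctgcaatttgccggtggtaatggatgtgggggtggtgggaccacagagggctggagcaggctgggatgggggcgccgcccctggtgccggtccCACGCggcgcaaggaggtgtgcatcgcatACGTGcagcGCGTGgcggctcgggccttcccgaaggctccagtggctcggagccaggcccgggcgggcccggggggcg
Slc2a6: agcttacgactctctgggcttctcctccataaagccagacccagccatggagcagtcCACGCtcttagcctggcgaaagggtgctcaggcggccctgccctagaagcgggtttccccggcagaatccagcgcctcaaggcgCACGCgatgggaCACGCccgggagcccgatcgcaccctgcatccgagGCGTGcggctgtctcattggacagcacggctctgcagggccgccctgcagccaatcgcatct
The Egln3 window (chr12:54203875-54204124, minus strand) held the motif at 1 place. The Bnip3 window (chr7:138909507-138909756, minus strand) held it at 4 places, 1 of which is the palindrome CACGTG that E-box factors also bind. The Ankrd37 window (chr8:45999851-46000100, minus strand) and the P4ha2 window (chr11:54100674-54100923, plus strand) held 3 places each. The Slc2a6 window (chr2:27027999-27028248, minus strand) held 4 places, all of the GCGTG form.

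Over all members, 39 of 48 windows held the motif (81.3%), against 7544 of 14912 windows of measured genes (50.6%). For the ACGTG form alone the shares were 24 of 48 member windows (50%) and 20.1% of the windows of measured genes. The module holds genes already known as HIF targets, so higher shares in its windows were likely beforehand, whatever the arrays read. They say nothing about why members differed between the arrays. The member windows were also richer in G and C, with a median of 62.2% against 58.0% in measured genes, and the part of base composition in these shares was not tested. Within the module, the motif was held by 13 of 16 windows of the 9 lower members (81.3%) and by both windows of the higher members Hk3 and Slc2a6. A match of letters is not evidence that a factor binds there.

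The 3 glucose transporters of the module differed widely from each other, whereas the 2 lactate carriers had similar values. Slc2a6, a glucose transporter found mainly on intracellular membranes, read an intensity of 16558 on the 5/6Nx array and 646.2 on the sham array (chromosome 2, 26876891 to 26876950). Its difference of 4.37, or 20.7-fold, was the highest of any member, and its other measured probe gave 4.25. The signal was clearly above background on both arrays, and none of the 11 alternative settings put Slc2a6 below 4.22.

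Slc2a3, a high-affinity glucose transporter of neurons and leukocytes, read 407.6 on the 5/6Nx array and 32.1 on the sham array (chromosome 6, 122678075 to 122678134). Its difference was 3.36, or 10.3-fold, and 1.82 with the normexp background correction, because the sham signal was dim. A second Slc2a3 probe was not well above background on both arrays and read 25.6 on the 5/6Nx array and 3.40 on the sham array. Slc2a1, the transporter of basal glucose uptake and a classical HIF target, read 9853 on the 5/6Nx array and 9454 on the sham array, a difference of -0.25 that became 0.13 with spike-in scaling and 0.0078 with loess scaling. The differences of Slc2a6 and Slc2a1 were thus 4.62 log2 units apart, or 24.6-fold.

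The lactate carriers Slc16a1 and Slc16a3 differed by -0.65 and -0.55, within 0.11 log2 units of each other. Slc16a3, the carrier that exports lactate from glycolytic cells, read 14213 on the 5/6Nx array and 16778 on the sham array. Slc16a1 read 377.8 on the 5/6Nx array and 480.0 on the sham array. The median over the 5 transporters was -0.25, and since Slc2a1 is the gene at that median, it also turned above 0 with spike-in and loess scaling.

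Most enzymes of the glycolytic chain were lower on the 5/6Nx array. Of the 17 enzymes, 13 had a difference below 0 (76.5%, against 55.5% of all measured genes), and 11 did with spike-in or loess scaling. By 2-fold or more, 4 were lower (23.5%, against 9.69% of all measured genes) and 1 was higher (5.88%, against 11.8%), and the median was -0.54. From Gpi1, the isomerase, to Ldha, lactate dehydrogenase, the 9 enzymes that stand alone at their step in the module all lay below 0, under every setting compared. Aldoa, the aldolase, read an intensity of 153954 on the 5/6Nx array and 180988 on the sham array, a difference of -0.54. Gapdh, the dehydrogenase often taken as a loading control, read 136704 on the 5/6Nx array and 171597 on the sham array, a difference of -0.64, and its 7 probes lay between -1.03 and -0.64. Pgk1, phosphoglycerate kinase, read 101155 on the 5/6Nx array and 116690 on the sham array, a difference of -0.51.

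The later steps of the chain held 3 enzymes past 2-fold. Pgam1, phosphoglycerate mutase, read 27462 on the 5/6Nx array and 46343 on the sham array (chromosome 19, 41992898 to 41992957). Its probe was printed as 10 spots, which gave a difference of -1.06 ± 0.04 (SD over spots of the same arrays) and ranged between 25572 and 29958 on the 5/6Nx array and between 43573 and 50304 on the sham array. Spots of the 2 arrays did not overlap in intensity, which speaks to spot noise and not to animals.

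Eno1, enolase, read 54035 on the 5/6Nx array and 96396 on the sham array (chromosome 4, 149622928 to 149622987), a difference of -1.14, and its 3 probes lay between -1.43 and -1.14. A further 3 probes that the files name Eno1b, a name RefSeq's table places with Eno1, gave -1.26 to -1.21. Pkm, pyruvate kinase, read 69894 on the 5/6Nx array and 125389 on the sham array (chromosome 9, 59527118 to 59527177), a difference of -1.15, and its 4 probes lay between -1.51 and -1.15. These 3 enzymes were lower at every measured probe, but only slightly past 2-fold: they fell short of it with spike-in scaling, at -0.69, -0.76 and -0.77 for Pgam1, Eno1 and Pkm, and also with quantile scaling, with loess scaling and in the authors' value table. Several glycolytic enzymes, Gapdh among them, have processed pseudogenes in the mouse genome, and binding of their transcripts to these probes was not tested.

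Where an enzyme step is shared by isozymes, their differences were unlike. Hk3, the hexokinase isozyme typical of myeloid cells, read 57544 on the 5/6Nx array and 17645 on the sham array (chromosome 13, 55107377 to 55107436), a difference of 1.40 or 2.63-fold, with 1.59 at its other probe. Hk1, the housekeeping hexokinase, read 37962 on the 5/6Nx array and 34462 on the sham array, a difference of -0.17 whose sign turned with spike-in and loess scaling and with the mean over its probes. Hk2, the insulin- and HIF-responsive hexokinase, read 2777 on the 5/6Nx array and 1975 on the sham array, a difference of 0.18. The differences of Hk3 and Hk1 were 1.57 log2 units apart.

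Phosphofructokinase, the committed step of glycolysis, has 3 isozymes. Pfkm, the muscle form, read 271.9 on the 5/6Nx array and 527.9 on the sham array at its single probe (chromosome 15, 97962713 to 97962772), a difference of -1.27, or -0.89 with spike-in scaling. Pfkl, the liver form, read 4144 on the 5/6Nx array and 3818 on the sham array, a difference of -0.19 that became 0.19 with spike-in scaling and 0.04 with loess scaling. Pfkp, the platelet form, read 4202 on the 5/6Nx array and 2483 on the sham array, a difference of 0.45, and all of its 5 probes lay above 0, at 0.13 to 0.81. The differences of Pfkm and Pfkp were 1.72 log2 units apart.

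The bifunctional enzymes that set the level of the activator of phosphofructokinase also differed from each other. Pfkfb3, the form with the strongest kinase activity, read 9510 on the 5/6Nx array and 4473 on the sham array, a difference of 0.78. Its dimmer probe gave -0.02, so the 2 probes differ in sign, and the brighter one passed 2-fold with spike-in scaling, at 1.16, and with loess scaling, at 1.03. Pfkfb4 read 1911 on the 5/6Nx array and 2805 on the sham array, a difference of -0.86. The other 3 enzymes, Gpi1, Tpi1 and Ldha, lay between -0.81 and -0.41 at their brightest probes. The 4 probes of Gpi1 ranged from -1.18 to -0.81, on both sides of the 2-fold limit, and the other Ldha probe gave -0.87.

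**Figure D3:**
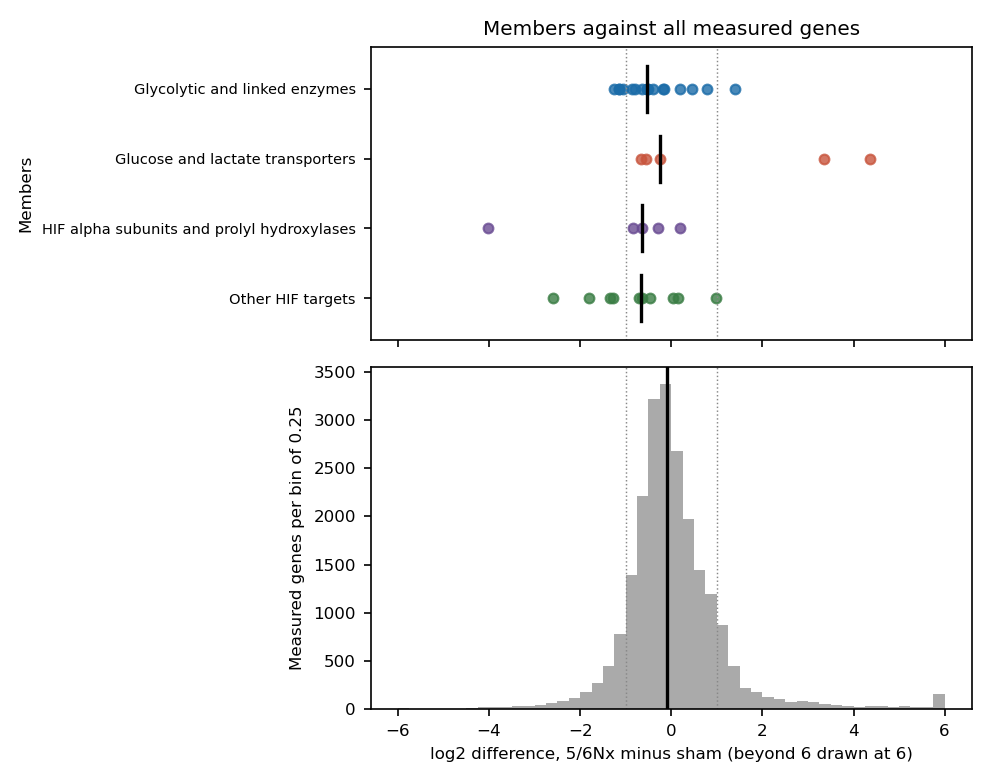
Log2 differences, 5/6Nx minus sham (x axis), of the members by role (top, 1 point per gene, black bar at the median) and of all 22301 measured genes (bottom, genes per bin of 0.25, black line at the median). The medians of the enzymes (-0.54), the HIF and hydroxylase genes (-0.63) and the other HIF targets (-0.67) lie left of the median of all genes (-0.10), and dotted lines mark 2-fold.

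Over all measured genes, the median difference fell as signal strength rose, starting from 0.06 at mean log2 levels up to -2. The members' medians had no such steady fall. They were 2.16 for 2 members at levels up to -2, -1.06 for 4 members between -2 and 0, and -0.29 for 7 members between 4 and 6. Among the 423 measured genes with a mean log2 level above 6, the median difference was -0.26 and 7.57% were at least 2-fold lower. The 11 members in that range, all of them enzymes, had a median of -0.54. After loess scaling, which removes a trend of the difference with the level and was added after the data had been seen, the enzymes' median was -0.23 and that of all members -0.25, against 0.04 for all genes. Of the 37 members, between 25 and 27 lay below the median of all genes under each of the 12 settings compared, of which the one restricted to brighter probes measured 34 members. The part of signal strength in the members' shift was not tested otherwise.

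**Figure D4:**
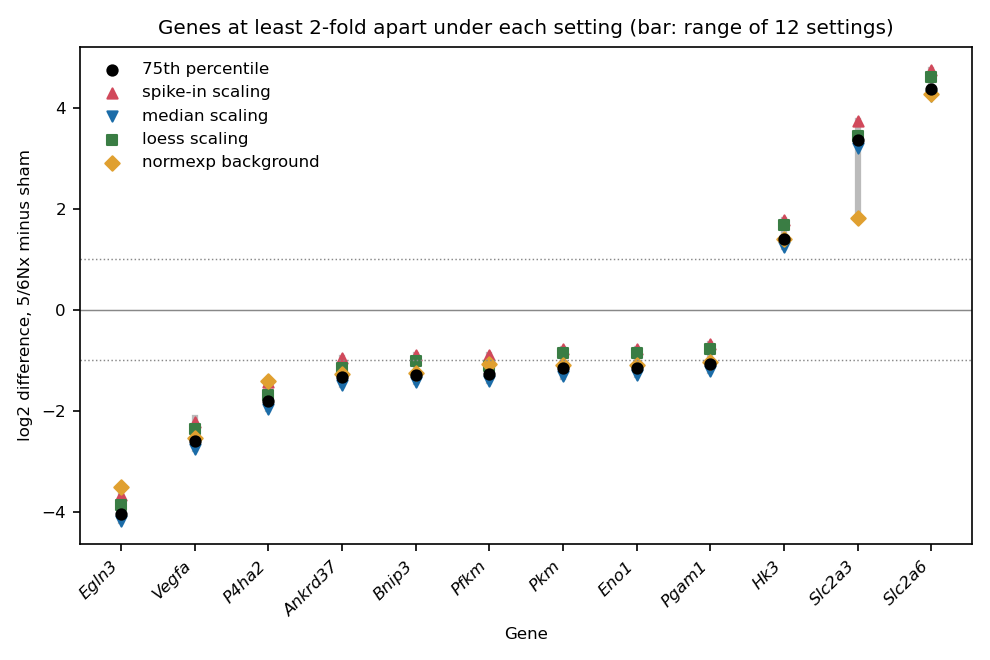
Log2 difference, 5/6Nx minus sham (y axis), of the 12 members at least 2-fold apart (x axis), with 1 symbol per scaling or background setting and a grey bar for the range over 12 settings. Dotted lines mark 2-fold: Egln3, Vegfa, P4ha2, Hk3, Slc2a3 and Slc2a6 stay outside them under every setting that measured them, whereas Ankrd37, Bnip3, Pfkm, Pkm, Eno1 and Pgam1 cross with spike-in scaling.

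Genes around the module gave a wider view of the same pathways. Of 30 other HIF targets, 25 were measured, of which 4 were higher (16%, against 11.8% of all measured genes) and 9 lower (36%, against 9.69%) by 2-fold or more, with a median of -0.73. Angptl4, a secreted inhibitor of lipoprotein lipase, read an intensity of 108.0 on the 5/6Nx array and 11354 on the sham array, a difference of -7.02. Hilpda, a lipid droplet protein, read 831.2 on the 5/6Nx array and 15062 on the sham array, a difference of -4.49. Arginase Arg1 read 157.0 on the 5/6Nx array and 13854 on the sham array, a difference of -6.77. In the opposite direction Nos2, the inducible nitric oxide synthase, read 39102 on the 5/6Nx array and 66.2 on the sham array, a difference of 8.90. The HIF targets around the module therefore held larger differences, in both directions, than any member.

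Of 14 other components of the HIF pathway, 12 were measured, with a median of 0.03. By 2-fold or more, 1 was higher (8.33%, against 11.8% of all measured genes) and none was lower (against 9.69%). The higher gene was Arnt, the partner of the alpha subunits, at 1.16, but its 3 probes ranged from -0.50 to 1.16. Among 18 other glycolytic isozymes and side enzymes, 11 were measured, with a median of -0.63. By 2-fold or more, 4 were lower (36.4%, against 9.69% of all measured genes) and none was higher (against 11.8%). The aldolase Aldoc read 458.1 on the 5/6Nx array and 3463 on the sham array, a difference of -3.23 with 3 probes between -3.44 and -3.12. Lactate dehydrogenase subunit Ldhb and the enolase Eno2 differed by -1.51 and -1.17. Of 13 other sugar and lactate carriers, 7 were measured and 3 were at least 2-fold lower (42.9%, against 9.69%), with none higher. Slc37a2, a sugar phosphate exchanger of macrophages, differed by -3.64.

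Markers of other cell types differed between the arrays beside these results. Shares of measured markers are given below, against 11.8% of all measured genes higher and 9.69% lower by 2-fold or more. In bulk RNA, fewer cells of a type and less RNA per cell cannot be told apart. All 13 monocyte and macrophage markers on the array were measured, 4 at least 2-fold higher (30.8%) and 2 lower (15.4%). Their summed intensity was 984651 on the 5/6Nx array and 661910 on the sham array. This sum and all marker sums below are before scaling. The 75th percentile used for scaling was 547.5 on the 5/6Nx array and 442.1 on the sham array. Without Ly6c1 and Ly6c2, the other 11 summed to 560476 on the 5/6Nx array and 575132 on the sham array. Among them, Fcgr1 differed by 2.63. The sort antigens, named here outside the rule for named genes, differed by -0.35 for Itgam (CD11b) and 1.98 for both Ly6c1 and Ly6c2, whose sequences are similar. The other probe of Itgam gave -1.18, and that of Ly6c1 gave 1.81. Of 14 T cell markers on the array, 13 were measured, 11 at least 2-fold higher (84.6%), and 1 more exceeded background for 5/6Nx alone. The T cell markers' summed intensity was 48463 on the 5/6Nx array and 3457 on the sham array, with Cd3g at 6.31 and Cd3d at 6.19. Of 11 NK cell markers, all 4 measured were higher (100%) and 7 exceeded background for 5/6Nx alone. The NK cell sums were 51405 on the 5/6Nx array and 352.4 on the sham array, led by Gzma at 9.56 and Il2rb at 7.67. Lymphocytes also express Slc2a3 and the glycolytic enzymes.

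Platelet and megakaryocyte markers summed to 16356 on the 5/6Nx array and 181190 on the sham array. Pf4 alone read 10232 on the 5/6Nx array and 163186 on the sham array. Of 10, 7 were measured, and 2 more exceeded background for 5/6Nx alone. By 2-fold or more, 3 were lower (42.9%, against 9.69% of all measured genes) and 2 were higher (28.6%, against 11.8%). The differences ran in both directions, with Pf4 at -4.30 and Treml1 at -3.80 on one side and a highest value of 3.59 on the other. Of 12 neutrophil markers, 7 were measured, 3 higher (42.9%) and 1 lower (14.3%), 2 exceeded background for 5/6Nx alone and 3 were dim on both arrays. Differences ranged from -3.97 to 7.31, with Lcn2 at 7.31 and Ly6g at 4.53. The sums were 173376 on the 5/6Nx array and 120805 on the sham array, of which Csf3r alone, at a difference of 0.25, gave 157350 on the 5/6Nx array and 106720 on the sham array. B cell markers summed to 3268 on the 5/6Nx array and 1535 on the sham array. Of 11, 8 were measured, 2 higher (25%), and 3 were above background for 5/6Nx alone. Conventional dendritic cell markers had 6 of 10 measured, 3 higher (50%) and 1 lower (16.7%). Red pulp macrophage markers had 8 of 10 measured, 2 higher (25%) and 5 lower (62.5%). Of 10 erythroid markers, 7 were dim on both arrays, 1 exceeded background for sham alone and the 2 measured differed by 2.70 and -0.44. The part of any of these cell types in the differences of the module was not tested.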

How the data were processed

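Total RNA of sorted splenic monocytes was amplified, labelled with Cy3 and hybridised to 1-colour Agilent arrays, per the labels' protocols. The authors deposited scanner files with linear intensity values, background-subtracted and detrended within each array and not scaled between arrays, per the file headers. The submitters' processing notes name Agilent Feature Extraction 9.5.1.1, and the file headers name version 10.7.1.1. The authors' value table, linear intensity with normalization not given in the sources used here, correlated with the scanner values at Pearson r = 0.9998 (5/6Nx) and 0.9996 (sham) across probes in log2 units.

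Computed here with Python 3.11.15 and pandas 2.3.3 were log2 intensities minus the 75th percentile of the same array's non-control spots. Spots with an outlier flag were left out (47 on the 5/6Nx array, 41 on the sham array). Saturation was flagged at no spot. Spots of a probe were averaged, and a gene was taken at its brightest probe well above background on both arrays. Normexp (offset 50) and loess scaling used limma 3.58.1 in R 4.3.3. Alternatives were scaling on the median, on the E1A spike-in probes, by quantiles or by loess, normexp, the authors' value table, 3 filters on dim probes, the mean over probes, and matching by accession or synonym. The steps were tested on simulated data.

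Members and gene lists were chosen with earlier results of these data known. Values are given in full for members at least 2-fold apart, their isozyme families and the 3 brightest enzymes. From each pathway list, at most 4 genes are named, each 2-fold or more apart and with a mean level above the median gene, and from each marker list at most the 2 largest differences. Some genes this rule takes are not reported here. With 1 array per group there was no test, and the number of arrays limits the precision. Promoter sequences are RefSeq's, from the table for GRCm38.p6.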

Additional observations from a re-analysis of the deposited data

How the results depend on the processing

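No paired analysis was possible because each group has 1 array. Members at least 2-fold apart numbered 3 higher and 9 lower, 5 and 3 with spike-in scaling, 4 and 6 with loess, 3 and 10 with median scaling or the mean over probes, and 3 and 6 with quantile scaling or the authors' table. Median scaling moved the medians to -0.69 (all members and enzymes), -0.40 (transporters), -0.78 (HIF and hydroxylase genes) and -0.82 (other HIF targets), and spike-in scaling moved them to -0.16, 0.13, -0.26 and -0.30 in the same order. Quantile scaling and the authors' table each gave -0.39 for all members, -0.36 for enzymes, -0.16 for transporters and -0.60 for other HIF targets. Loess gave -0.25, -0.23, 0.0078, -0.40 and -0.44 (all members, enzymes, transporters, HIF and hydroxylase genes, other HIF targets). Brighter probes alone gave -0.40 for transporters, and the mean over probes -0.80 for other HIF targets. The transporters' median thus reversed with spike-in and loess scaling. Tkt, at 1.29, reversed to -0.25 with the mean over its 3 probes. The share of higher genes among all genes at least 2-fold apart was 54.9%, 41.5% with median scaling, 80.3% with spike-in scaling and 63.0% with loess, and the median of all genes moved to 0.28 with spike-in scaling. The cause was not tested. Dim probes limit Slc2a3, Adm and P4ha2.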

Other observations

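Genes of sugar storage and of the branches off glycolysis were also mostly lower on the 5/6Nx array. All 8 pentose phosphate enzymes were measured, with a median of -0.77 and 6 below 0 (75%, against 55.5% of all measured genes). By 2-fold or more, 3 were lower (37.5%, against 9.69%) and 1 was higher (12.5%, against 11.8%). Taldo1, the transaldolase, read an intensity of 25146 on the 5/6Nx array and 128191 on the sham array, a difference of -2.66. H6pd, the dehydrogenase of the endoplasmic reticulum, and Pgd, which makes NADPH in the cytosol, differed by -2.44 and -1.75. Tkt, transketolase, was 1.29 higher at its brightest probe, while its 3 probes ranged from -1.69 to 1.29. Of 10 glycogen enzymes, 9 were measured, with a median of -0.82 and 8 below 0 (88.9%, against 55.5%). By 2-fold or more, 4 of the glycogen enzymes were lower (44.4%, against 9.69%) and none was higher (against 11.8%). The lower glycogen enzymes included Pygl, the liver form of glycogen phosphorylase, at -1.45, Ugp2, which makes UDP-glucose, at -1.32, and the branching enzyme Gbe1 at -1.14. The 3 probes of Gbe1 ranged from -1.33 to -0.04.

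Among 9 genes that control pyruvate dehydrogenase, 8 were measured, 1 higher and 1 lower by 2-fold or more (12.5% each, against 11.8% and 9.69% of all measured genes), with a median of -0.18. Pdk3, a pyruvate dehydrogenase kinase, read 1566 on the 5/6Nx array and 512.1 on the sham array, a difference of 1.30 with 1.18 at its other probe. Its relative Pdk2, named here after its values were seen, read 85.4 on the 5/6Nx array and 264.6 on the sham array, a difference of -1.94, and Pdk4, likewise, exceeded background for sham alone. Over all 102 genes of these pathway lists, 80 were measured, of which 7 were at least 2-fold higher (8.75%, against 11.8% of all measured genes) and 24 lower (30%, against 9.69%), and the median was -0.44.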
